A study of Homo sapiens with 16 samples.

Results

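The data described here are the JARID2 peaks of HepG2, a human hepatocellular carcinoma cell line, called against sonicated input chromatin in 2 chromatin immunoprecipitation sequencing (ChIP-seq) replicates. All deposited peaks on chromosomes 1 to 22 and X were kept, which gave 15687 peaks in replicate 1 and 4075 in replicate 2. These 19762 peaks belong to 173240 in the 8 peak lists of the series. The study's title names EZH2 and JARID2 in hepatocellular carcinoma, and its 16 samples are immunoprecipitated (IP) and input libraries of HepG2 and a non-tumour liver line. Both HepG2 IP libraries carry JARID2 in their titles, no treatment is named in the labels, the series calls its replicates biological, and each library has an input of its own. The protocol of replicate 1 names a JARID2 antibody from Novus Biological, whereas that of replicate 2 has a general sentence that names no target and a catalogue number from another supplier (CST). The antibody and the replicate therefore cannot be told apart. HepG2 is a single tumour line, so 2 replicates describe this line only, and the peak lists hold no measurement that checks the antibody.

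JARID2 is an accessory subunit of Polycomb repressive complex 2 (PRC2), whose catalytic subunit EZH2 or EZH1 methylates lysine 27 of histone H3 together with EED and SUZ12. JARID2 binds nucleosomes and helps recruit PRC2, and in embryonic stem cells it is best known at CpG-rich promoters of silent developmental genes such as the HOX clusters. PRC1 is a separate Polycomb complex that ubiquitinates histone H2A and recognises the mark that PRC2 makes.

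The promoter windows below belong to the genes at which a reader can compare both replicates. RNF130, ARFGAP3, SPOP, HDAC2, DHX40 and SYCE2 had overlapping peaks of both replicates at the gene start, PODXL2 had the peak with the highest fold enrichment of replicate 1, and ALB, the albumin gene of hepatocytes, had no peak at its ends. Each run is the RefSeq sequence (GRCh38.p14) from 250 bases before to 50 bases after the transcription start, in the direction of the gene, with every CG dinucleotide in capitals.
RNF130, chr5:180071710-180072009, minus strand: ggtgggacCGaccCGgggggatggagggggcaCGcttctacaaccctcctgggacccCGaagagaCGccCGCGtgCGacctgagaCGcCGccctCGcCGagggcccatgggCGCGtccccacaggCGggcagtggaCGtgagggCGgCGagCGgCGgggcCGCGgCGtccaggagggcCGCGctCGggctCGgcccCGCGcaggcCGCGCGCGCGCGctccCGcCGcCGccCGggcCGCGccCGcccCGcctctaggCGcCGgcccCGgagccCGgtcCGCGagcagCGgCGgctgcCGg
ARFGAP3, chr22:42857224-42857523, minus strand: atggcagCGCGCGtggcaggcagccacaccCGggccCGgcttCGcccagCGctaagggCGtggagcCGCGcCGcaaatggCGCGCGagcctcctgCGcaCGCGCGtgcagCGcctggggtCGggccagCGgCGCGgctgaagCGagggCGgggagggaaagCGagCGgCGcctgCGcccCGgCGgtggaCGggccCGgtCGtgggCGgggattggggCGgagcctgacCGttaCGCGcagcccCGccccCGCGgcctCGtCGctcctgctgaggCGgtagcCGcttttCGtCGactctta
SPOP, chr17:49678114-49678413, minus strand: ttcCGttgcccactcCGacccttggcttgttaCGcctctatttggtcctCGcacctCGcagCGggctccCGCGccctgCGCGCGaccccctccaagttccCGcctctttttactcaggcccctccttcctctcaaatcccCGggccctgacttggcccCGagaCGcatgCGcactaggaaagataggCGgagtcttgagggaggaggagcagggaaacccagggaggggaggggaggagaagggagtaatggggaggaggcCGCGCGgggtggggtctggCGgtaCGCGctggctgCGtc
HDAC2, chr6:113971099-113971398, minus strand: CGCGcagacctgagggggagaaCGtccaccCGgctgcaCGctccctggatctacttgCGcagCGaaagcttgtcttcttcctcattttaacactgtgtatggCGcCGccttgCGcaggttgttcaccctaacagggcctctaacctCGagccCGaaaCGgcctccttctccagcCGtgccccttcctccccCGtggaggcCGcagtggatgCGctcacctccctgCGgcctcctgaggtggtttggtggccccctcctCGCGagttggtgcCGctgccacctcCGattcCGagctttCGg
DHX40, chr17:59565360-59565659, plus strand: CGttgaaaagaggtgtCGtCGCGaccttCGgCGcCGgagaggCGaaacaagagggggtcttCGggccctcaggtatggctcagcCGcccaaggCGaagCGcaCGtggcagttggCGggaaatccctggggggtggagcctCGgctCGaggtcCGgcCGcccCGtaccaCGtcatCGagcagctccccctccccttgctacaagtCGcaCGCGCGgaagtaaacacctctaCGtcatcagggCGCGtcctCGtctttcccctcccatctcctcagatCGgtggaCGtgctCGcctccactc
SYCE2, chr19:12919244-12919543, minus strand: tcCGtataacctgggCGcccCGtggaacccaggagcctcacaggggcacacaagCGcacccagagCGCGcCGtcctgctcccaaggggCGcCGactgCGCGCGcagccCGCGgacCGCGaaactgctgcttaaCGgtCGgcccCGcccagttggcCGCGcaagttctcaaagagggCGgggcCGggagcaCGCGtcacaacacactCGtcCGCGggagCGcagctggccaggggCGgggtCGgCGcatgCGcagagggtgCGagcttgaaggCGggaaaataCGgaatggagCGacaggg
PODXL2, chr3:127628935-127629234, plus strand: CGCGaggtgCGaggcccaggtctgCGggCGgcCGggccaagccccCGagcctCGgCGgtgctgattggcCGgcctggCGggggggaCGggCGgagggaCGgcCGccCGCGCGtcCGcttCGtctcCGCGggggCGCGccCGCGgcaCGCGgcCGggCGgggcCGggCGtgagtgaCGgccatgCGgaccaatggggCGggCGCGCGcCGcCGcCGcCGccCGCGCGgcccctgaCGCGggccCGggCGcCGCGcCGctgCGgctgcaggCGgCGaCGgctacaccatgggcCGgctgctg
ALB, chr4:73404037-73404336, plus strand: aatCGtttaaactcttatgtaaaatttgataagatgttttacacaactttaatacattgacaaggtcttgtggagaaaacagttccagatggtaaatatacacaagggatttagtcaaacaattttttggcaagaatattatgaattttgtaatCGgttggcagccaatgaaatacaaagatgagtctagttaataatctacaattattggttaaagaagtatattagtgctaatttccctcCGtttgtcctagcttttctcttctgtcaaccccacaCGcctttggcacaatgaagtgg
These windows held 52 CG dinucleotides (CpGs) at RNF130, 48 at ARFGAP3, 24 at SPOP, 24 at HDAC2, 32 at DHX40, 37 at SYCE2 and 57 at PODXL2, against 4 at ALB. TRIM44 and BCL7C, whose windows are not printed, also had overlapping peaks of both replicates at the start and held 17 and 45. The median over all 22012 coding starts with a window was 21. Counting bases from 1 at the 5′ end of each run, the summit, or highest point, of the ARFGAP3 peak fell on base 45 in replicate 1 and base 40 in replicate 2. At SPOP the summits fell on bases 99 and 94, and at DHX40 on bases 89 and 28. The SYCE2 summit of replicate 2 fell on base 282, and the PODXL2 summit of replicate 1 on base 22. The RNF130 and HDAC2 summits of both replicates and the SYCE2 summit of replicate 1 lay outside the printed runs.

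The 2 lists differed in size, in signal and in their position relative to genes. Replicate 1 had 7.95 M IP tags (M, mega) after removal of duplicates (13.4 M for its input) and replicate 2 had 14.6 M (input 13.8 M), so the longer list came from the shallower library. A tag is a sequenced read counted at its mapped position, and at most 1 was kept per position. Peaks held 9 to 722 tags in replicate 1 (median 12) and 11 to 514 in replicate 2 (median 14). Peak tags made up 3.52% of the IP tags of replicate 1 and 0.503% of those of replicate 2. The authors' fold enrichment over input reached 63.15 in replicate 1, where 135 peaks were at 20 or above, and 16.06 in replicate 2, where 0 were. The authors' false discovery rate, which swaps IP and input, was at most 2.56% in replicate 1 and 100% for every peak of replicate 2. A called replicate 2 peak therefore does not by itself show JARID2 binding. Intervals given below are 95% Wilson intervals, which cover counting error only, and with 2 libraries no difference between replicates was tested.

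Replicate 1 was concentrated at the ends of coding genes and replicate 2 was not. In replicate 1, 27.1% of the peaks lay within 2 kb of a start or end of a coding gene, against 3.41% in replicate 2. By summit alone these shares were 25.8% (interval 25.1 to 26.5%) and 3.07% (2.58 to 3.64%), while such windows make up 4.55% of the annotated chromosome span. Other summits inside coding genes were alike in share, at 41.1% in replicate 1 and 42.8% in replicate 2, close to the 38.99% of the span. Summits in or within 2 kb of long noncoding RNA (lncRNA) genes made up 7.99% and 13.8%, against 12.98% of the span. Summits away from every annotated gene made up 24.3% of replicate 1 and 39.6% of replicate 2, against 42.1% of the span. Replicate 2 was thus spread over these classes in shares near those of the annotated span, except for a lower share at coding gene ends.

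**Figure D1:**
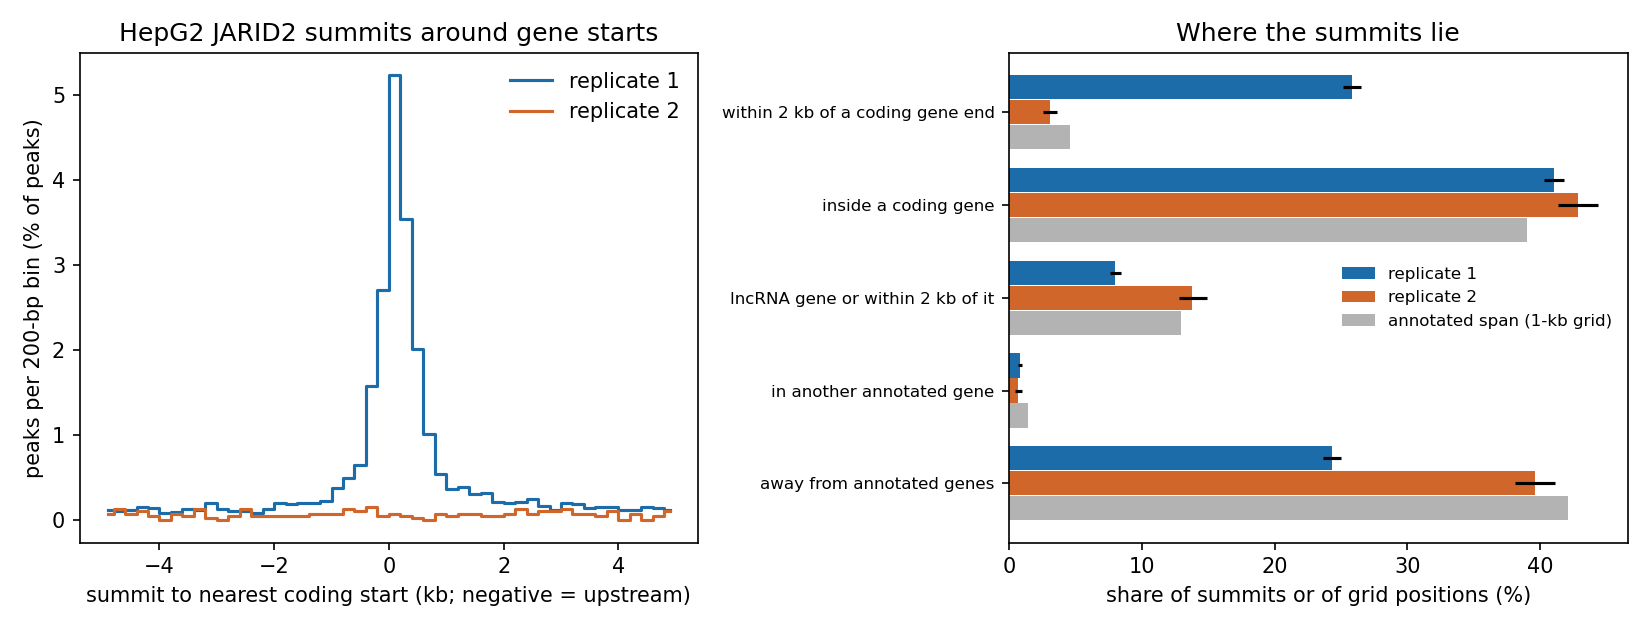
Left, distance in kb from each peak summit to the nearest coding transcription start (negative upstream), as a percent of peaks per 200-bp bin in each replicate. Starts are those of the 15712 coding genes with promoter data, none on chromosome 8. Right, percent of summits in each position class with 95% Wilson intervals, beside the percent of a 1-kb grid over the annotated span. Replicate 1 peaks at 5.23% of its peaks in the bin just downstream of the start, and replicate 2 shows no such rise.

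Replicate 1 peaks lay at gene starts more often than at 3′ ends. On the chromosomes with promoter data, 2209 of 15025 replicate 1 summits (14.7%) lay within 500 bp of a coding start, and 1512 of them (68.4%) lay downstream of it, with a median position of 115 bp into the gene. In replicate 2, 16 of 3847 summits (0.416%) lay within 500 bp of a start. Among 15712 coding genes with a known strand, 2957 (18.8%) had a replicate 1 peak within 2 kb of the 5′ end and 938 (5.97%) within 2 kb of the 3′ end. For genes over 8 kb, whose 2 ends are well apart, these numbers were 2414 and 609. Replicate 2 had peaks at 55 of the 5′ ends and 69 of the 3′ ends. The median distance from a summit to the nearest coding start in the promoter data was 25.95 kb in replicate 1 and 107 kb in replicate 2. That data gave starts for 15712 of the 19974 coding genes, so the shares and distances here leave out the other starts.

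The share of peaks at coding gene ends rose with the number of tags in replicate 1. It was 6.22% among the 4710 peaks with 10 tags or fewer, 12.9% with 11 to 14 tags, 30.3% with 15 to 19, 59.9% with 20 to 39 and 74.1% among the 1015 peaks with 40 or more. In replicate 2 it was 2.66% with 11 to 14 tags, 2.28% with 15 to 19, 7.22% with 20 to 39 and 6.78% among the 118 peaks with 40 or more. The median number of tags of a replicate 1 peak was 23 at coding gene ends and 11 or 12 in every other class, while in replicate 2 it was 14 at coding gene ends and 14 or 15 elsewhere. Ranking by fold enrichment gave another order. The lowest quartile of replicate 1 peaks by fold (2.98 to 8.53) had 45.6% at coding gene ends and the highest (12.08 to 63.15) had 17.6%. Fold enrichment is relative to the input at the same place.

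CpG content separated the promoters with a replicate 1 summit from the others. Promoter windows with a replicate 1 summit within 500 bp of the start held a median of 34 CpGs and 72% G or C (2607 starts), against 19 CpGs and 61% in the 19405 without one. Across deciles of all windows ranked by CpG number, the share of starts with a replicate 1 summit was 0.409% in the lowest decile (median 1 CpG), 7.81% in the fifth (median 18) and 36.7% in the highest (median 44, interval 34.8 to 38.8%). In replicate 2 the share lay between 0 and 0.136% in every decile, with upper interval bounds of at most 0.400%. G or C content also moves the yield of a sequencing library, and its part in this gradient was not tested.

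**Figure D2:**
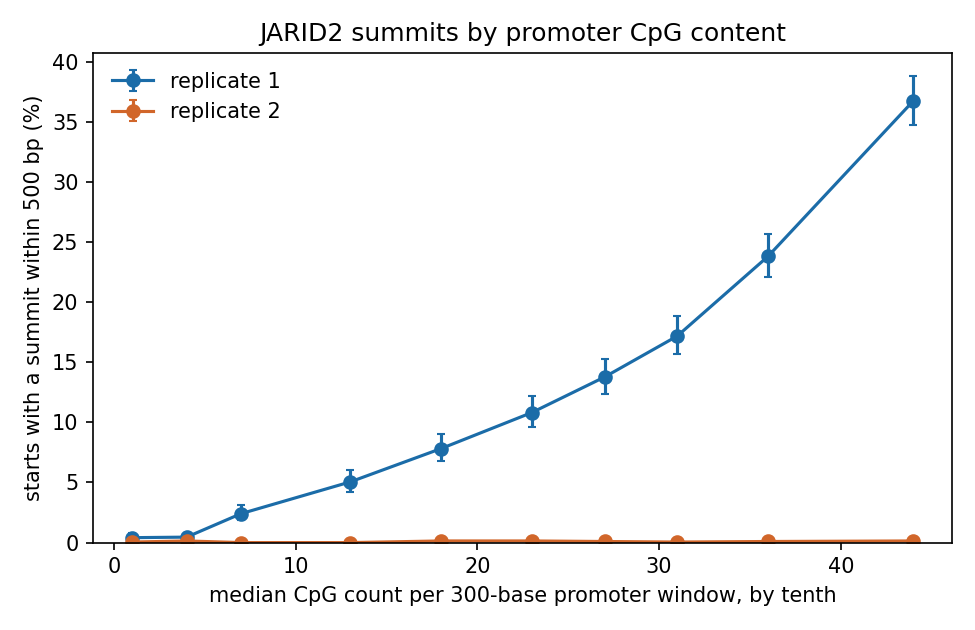
Percent of coding transcription starts with a peak summit within 500 bp, against the median number of CpGs in the 300-base window of each decile of starts, for each replicate. Bars are 95% Wilson intervals; replicate 1 rises from 0.409% to 36.7%, and replicate 2 stays at or below 0.136%.

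Short sequence motifs, searched as exact letters on both strands of the windows, differed in share between replicate 1 windows and all windows. The GC-rich run CCGCCGCCG was in 19.4% of the replicate 1 windows and 8.10% of all windows, and TATAAA, a form of the TATA box, in 3.80% and 9.49%. Within windows of 30 or more CpGs these shares came closer, at 26.6% of 1676 replicate 1 windows and 22.1% of 6370 windows for the GC-rich run, and 2.21% and 2.24% for the TATA box form. The E-box CACGTG was in 11.8% of replicate 1 windows and 8.32% of all, and in 12.4% and 10.7% within windows of 30 or more CpGs. TGCGCA, which repeats in the palindrome that the transcription factor NRF1 binds, was in 11.7% of replicate 1 windows and 9.84% of all. Within windows of 30 or more CpGs the order turned, with 11.8% of replicate 1 windows and 13.96% of all. In replicate 2 TGCGCA was in 8 of the 18 windows (44.4%) with a summit within 500 bp, from 7 genes, since SPOP counts by 2 starts. These genes were CENPS-CORT, CIMIP6, COX17, HDAC2, SPOP, SYCE2 and ARFGAP3. In the runs printed above TGCGCA begins at base 94 of ARFGAP3, base 168 of SPOP, base 56 of HDAC2 and base 248 of SYCE2, and it is not in the windows of RNF130 and DHX40. TGCGCA was added to the search after the sequences had been seen, so its count is a description of these 18 windows.

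Gene by gene, 4503 of 19974 coding genes had a replicate 1 peak within 2 kb of an end (22.5%) and 143 had a replicate 2 peak (0.716%). A summit within 500 bp of a start was found for 2252 of 15712 genes in replicate 1 (14.3%) and for 17 in replicate 2 (0.108%). Of 18177 lncRNA genes, 1731 had a replicate 1 peak within 2 kb of an end (9.52%) and 182 a replicate 2 peak (1.0%). For lncRNA genes with a coding gene end within 2 kb the replicate 1 share was 21.6%, and for the rest it was 5.17%. In replicate 2 these shares were 0.955% and 1.02%. A peak between neighbouring genes was counted for each of them. The gene lists below are set beside the shares of all coding genes without matching for promoter CpG content. The part of CpG content in the list shares was not tested.

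The coding genes with the most tags at an end in replicate 1 included regulators of growth and signalling. YAP1, the transcriptional coactivator of the Hippo pathway, came first with 352 tags in a peak of 4208 bp over its start (chromosome 11, 102107981 to 102112188, GRCh38), at a fold enrichment of 4.91. PGR, the progesterone receptor, had 237 tags and a fold of 5.42, and IRS2, an adaptor of the insulin receptor, had 202 tags and a fold of 10.14 in a peak of 5809 bp that also reached the neighbour LOC124903211. AHRR, the repressor of the aryl hydrocarbon receptor, had 167 tags, PXDC1 had 129, NOTUM, a secreted WNT deacylase, had 126, and TRIO, a guanine nucleotide exchange factor, had 124. The others of the 15 leading genes were GPT, RECQL4 and SLC33A2 with a shared peak of 150 tags, TONSL with 125, ARHGDIA with 123 and FIBCD1 with 121. None of these had a replicate 2 peak at an end. RNF130, a membrane-bound ubiquitin ligase, had 147 tags and the second highest fold of the list, 62.87. YAP1 and PGR lie in a stretch of chromosome 11 that replicate 2 also covered densely, as described below. AHRR and TRIO lie on the short arm of chromosome 5, where replicate 2 peaks were dense as well.

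Of the promoters of highest fold enrichment in replicate 1, RNF130 was also among the 15 genes with the most tags. PODXL2, a sialomucin, had the highest fold of replicate 1, 63.15, with a summit at -229 bp from its start. Its 121 tags equalled those of FIBCD1, the last of the 15. MEX3D, an RNA-binding protein gene, had a fold of 37.26 with 37 tags and a summit at -230 bp, and ATL3, a GTPase of the endoplasmic reticulum, had 33.13 with 118 tags and a summit at -163 bp. Among the 8 peaks of highest fold, 2 lay close together on chromosome 1, at 143263980 and 143249539. They were 641715 and 656249 bp from the nearest coding start with promoter data. Another of the 8, at 171761729 on the same chromosome, had a fold of 39.85 and 68 tags. The fold values of replicate 2 did not exceed 16.06, and its peak of highest fold held 24 tags in or near an lncRNA gene. The nearest coding start with promoter data, that of SLC4A3, was 640424 bp away.

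In replicate 2 the 6 genes with the most tags lay on chromosome 11, in 2 groups on opposite arms. ANGPTL5, an angiopoietin-like gene, had 270 tags at its 3′ end, and OR52K1, an olfactory receptor gene, had 179. ARHGAP42, a GTPase-activating protein gene, had 101 tags, the olfactory receptor genes OR52I1 and OR52I2 shared a peak of 84, and CNTN5, a neural adhesion gene, had 78. Their folds lay between 3.90 and 5.29. The next in order were RNF130 with 63 tags, DHX40 with 50, SYCE2 with 45, TRIM44 with 42, VRK3 and ZNF473 with a shared peak of 42 and ARFGAP3 with 36, which all had an overlapping replicate 1 peak. LOC124902738 with 46 tags and CENPS with 33 completed the 15 and had no replicate 1 peak at an end.

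Genes of PRC2 itself were partly marked in replicate 1. JARID2 had a peak of 37 tags whose summit lay 860 bp before its start, and EZH2 had 48 tags with the summit 300 bp before it. LCOR, whose locus also encodes a PRC2 accessory protein, had 52 tags, the histone chaperone gene RBBP7 had 37 and EZH1 had 30. These made 5 of 13 PRC2 genes (38.5%, interval 17.7 to 64.5%, against 22.5% of all coding genes). The core subunit genes EED and SUZ12 had no peak at their ends in either replicate, nor did the cell cycle inhibitor genes CDKN2A and CDKN2B, textbook targets of Polycomb. Replicate 2 had a peak at 0 of the 13 PRC2 genes, which allows up to 22.8%. Among PRC1 subunit genes 12 of 23 (52.2%, 33.0 to 70.8%) had a replicate 1 peak, among them SCMH1 with 67 tags, BCOR with 54 and CBX2 with 44, and 0 had a replicate 2 peak. Of 16 Trithorax and H3K27 demethylase genes 4 had one in replicate 1, among them the methyltransferase gene KMT2A with 59 tags and WDR5, a shared subunit, with 55.

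Replicate 1 peaks covered 0.378% of the annotated chromosome span, and a larger part of each HOX cluster. That span includes stretches away from genes, and replicate 1 had 5.18 peaks per Mb of it but 37.6 per Mb of genes under 10 kb. The clusters were not compared with other stretches of short genes. HOXA, the cluster with the most peaks, had 11, with 15 to 40 tags each, over 9.76% of its length. HOXD had 5 peaks over 4.07%, HOXC 3 over 2.93% and HOXB 3 over 1.03%. At gene ends 13 of 39 HOX genes (33.3%, 20.6 to 49.02%) had a replicate 1 peak, an interval that spans the 22.5% of all coding genes, with 40 tags at HOXA13, 37 at HOXA7, 30 at HOXC12, 29 at HOXA9, 28 at HOXC5 and 24 at HOXD8. Replicate 2 had 0 peaks in all 4 clusters, while a locus with peaks of both lay 21208 bp outside HOXC13, with 9 tags in replicate 1 and 21 in replicate 2.

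Developmental transcription factors stood above the share of all coding genes in replicate 1. Of 176 such genes 78 had a peak at an end (44.3%, 37.2 to 51.7%), with 108 tags at the forkhead gene FOXQ1, 88 at SOX18, 79 at FOXC1, 69 at the LIM homeobox gene LHX2, and 64 each at MNX1 and POU3F1. The median over the marked genes was 23.5 tags, beside 24 over all marked coding genes. Replicate 2 had peaks at 2 of them, POU3F3 with 14 tags and HEY2 with 12, both at the 3′ end, whereas the replicate 1 peaks of these genes lay at the 5′ end with 15 and 20 tags.

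WNT ligand and receptor genes and histone deacetylases were also above that share in replicate 1. Among WNT ligands and receptors 19 of 37 (51.4%, 35.9 to 66.6%) had a peak, led by WNT7B with 64 tags, WNT9A with 57, WNT4 with 52 and the receptor gene FZD9 with 46. WNT inhibitors and intracellular components had 9 of 26 (34.6%, 19.4 to 53.8%), an interval that spans 22.5%, led by NOTUM, AXIN2 with 62 tags and TCF7L1 with 44. Histone deacetylase and sirtuin genes had 11 of 18 (61.1%, 38.6 to 79.7%), with 77 tags at HDAC7, 53 at HDAC4, 39 at SIRT7, 38 at SIRT1 and 33 at HDAC2. HDAC2 and HDAC8 were the 2 members with a replicate 2 peak, of 29 and 16 tags, and at HDAC8 the peaks of the replicates did not overlap. Neuronal channel and receptor genes had 31 of 93 (33.3%, 24.6 to 43.4%) in replicate 1, with 79 tags at the glutamate receptor gene GRIN1, 49 at CACNA1G and 48 at GRIN2C. GRIN2B alone had a replicate 2 peak, of 14 tags.

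Genes of hepatocyte function lay below the share of all coding genes in replicate 1, again without matching for promoter CpG content. Of 82 plasma protein genes 6 had a replicate 1 peak (7.32%, 3.40 to 15.1%), at the complement genes C5 with 64 tags and C8G with 43, at IGFBP1 with 48, and with 10 to 18 tags at APOA5, APOC2 and A1BG. Of 79 genes of hepatocyte metabolism and transport 8 had one (10.1%, 5.22 to 18.7%), with 83 tags at the fatty acid synthase gene FASN and 56 at ASS1 of the urea cycle. Liver transcription factor genes did not share this: 10 of 30 (33.3%, 19.2 to 51.2%) had a peak, with 55 tags at CEBPD, 48 at GATA6, 37 at CEBPA and 37 at KLF15. Replicate 2 had 0 peaks at the ends of all 3 lists, which allows up to 4.48% of the plasma protein genes.

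Genes that most cells express lay near the background in replicate 1. Cytosolic ribosomal protein genes had 17 of 79 (21.5%, 13.9 to 31.8%), led by RPL12 with 48 tags, and proteasome genes 8 of 31 (25.8%, 13.7 to 43.2%), led by PSMA7 with 90. Spliceosome and mRNA processing genes had 16 of 55 (29.1%, 18.8 to 42.1%) and cell cycle genes 22 of 72 (30.6%, 21.1 to 42.0%), the latter with 60 tags at the cyclin gene CCND1 and 54 at POLE. Tumour suppressor and liver cancer genes had 20 of 69 (29.0%, 19.6 to 40.6%), with 77 tags at ARID1A after YAP1. Other lists had intervals below 22.5%. Zinc finger (ZNF) genes had 92 of 510 (18.0%, 14.9 to 21.6%). Olfactory receptor genes had 8 of 392 (2.04%, interval up to 3.97%) and keratin genes 1 of 149 (up to 3.70%). Protocadherins had 1 of 53 (up to 9.94%) and replication-dependent histone genes 1 of 69 (up to 7.76%). Neuronal adhesion genes had 5 of 48 (10.4%, 4.53 to 22.2%), led by PCDH7 with 38 tags. The share was 16 of 56 for BMP, TGF-beta, FGF and hedgehog ligands, 15 of 52 for epithelial-mesenchymal genes and 10 of 29 for nuclear transport receptors. It was 8 of 39 for cullin ubiquitin ligase genes, 12 of 77 for mitochondrial ribosomal proteins and 4 of 37 for blood and endothelial markers, and the intervals of these 6 lists spanned 22.5%. Over the 29 lists the replicate 1 interval lay above 22.5% in 5, below it in 8 and across it in 16.

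In replicate 2, 18 of the 29 lists had no gene with a peak at an end. The interval lay above 0.716% in 5 lists, which held 2 to 9 marked genes each. Olfactory receptor genes had 9 of 392 (2.30%, 1.21 to 4.31%), led by OR52K1, OR52I1 and OR52I2 on chromosome 11 and OR6P1 with 30 tags. Neuronal adhesion genes had 3 of 48 (6.25%, 2.15 to 16.8%), CNTN5, CDH10 with 25 tags and CDH8 with 12. ZNF genes had 8 of 510 (1.57%, 0.797 to 3.06%), led by ZNF473 and by ZNF639 with 25 tags. The histone deacetylase genes and the cell cycle genes, with CDK1 at 17 tags and TTK at 16, were the other lists of these 5. The EMT regulator SNAI2 with 21 tags, XPO1, SPOP, GRIN2B and the keratin gene KRT6B with 14 were each the single marked gene of their list.

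**Figure D3:**
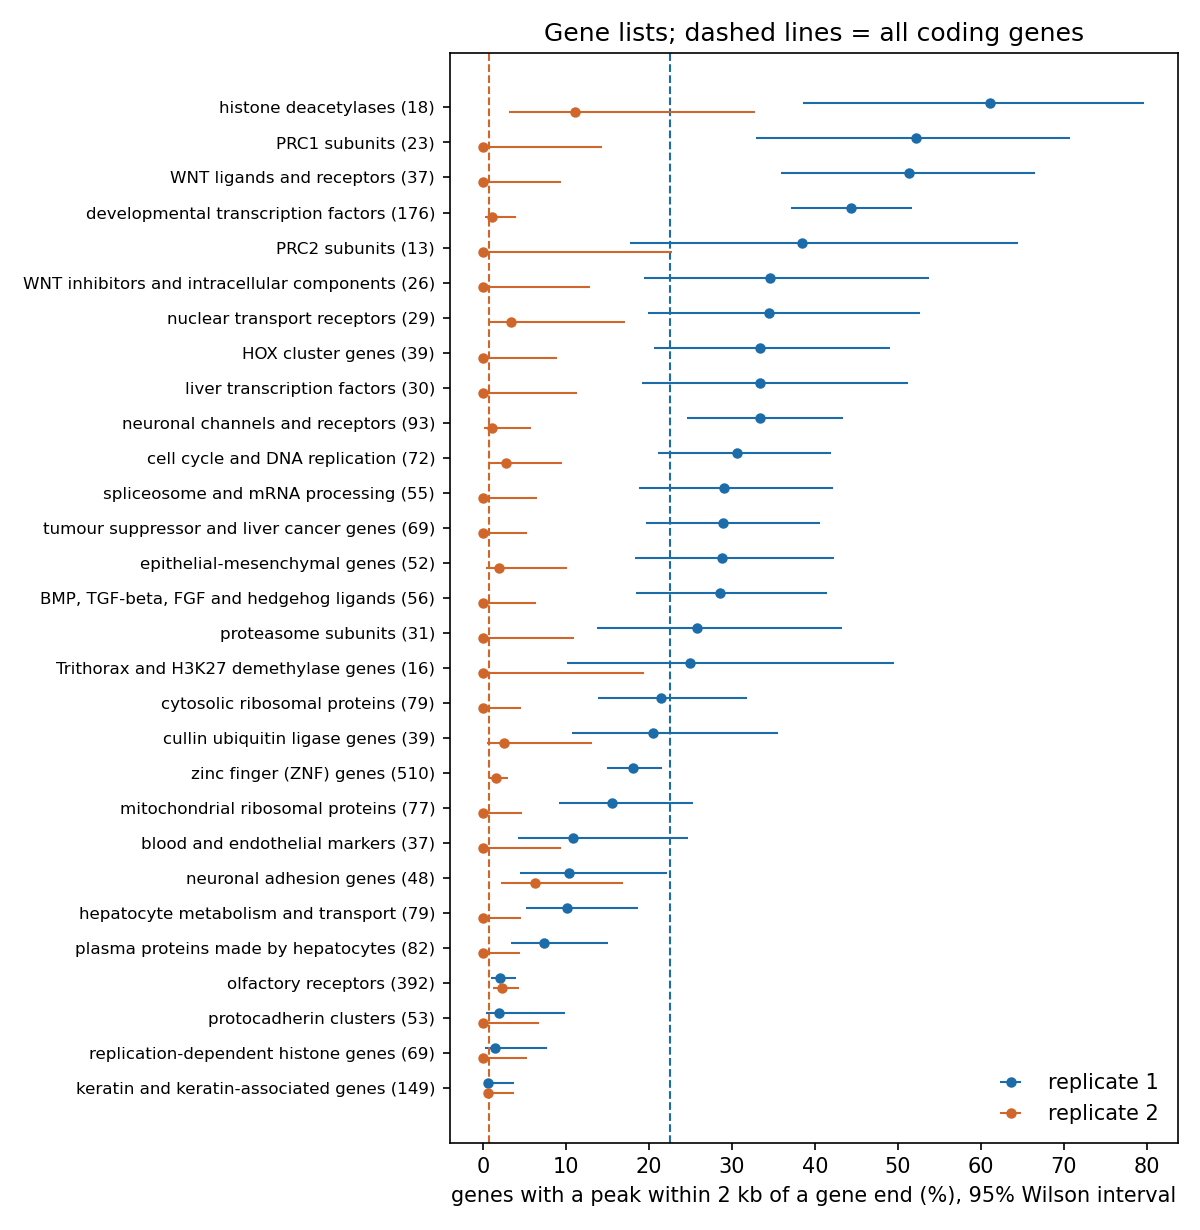
Percent of the genes of each list (number of genes in parentheses) with a peak within 2 kb of a gene end, with 95% Wilson intervals, in each replicate; dashed lines mark all coding genes, 22.5% and 0.716%. In replicate 1 the lists run from 0.671% for keratin genes to 61.1% for histone deacetylases, and in replicate 2 most lists sit at 0.

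Gene length set the replicates apart in peaks over gene bodies. A body here ran from gene start to gene end, and peaks that overlapped it at either end were counted. The part of gene-end peaks in the numbers below was not tested. In replicate 1 the number of peaks per Mb of gene fell from 37.6 for genes under 10 kb to 2.71 for genes over 500 kb, and in replicate 2 it rose from 0.415 to 1.53. A replicate 2 peak lay in the body of 55.7% of the 314 genes over 500 kb and of 6.65% of all coding genes. A replicate 1 peak lay in the body of 80.6% of those 314 genes and of 34.6% of all coding genes. Among 48 neuronal adhesion genes, whose median length is 943 kb, 30 (62.5%) had a replicate 2 peak in the body and 34 (70.8%) a replicate 1 peak. The bodies with the most replicate 2 peaks were those of the cadherin gene CDH12 with 24, ARHGAP42 with 21, the cadherin gene CDH18 with 20 and CNTN5 with 10, where replicate 1 had 2, 3, 6 and 2. In replicate 1 the highest numbers were 12 in BCAS3, 10 in GSE1 and 10 in MAD1L1, where replicate 2 had 1, 0 and 0.

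Peak density followed gene density across chromosomes in replicate 1 and not in replicate 2. Replicate 1 had 13.1 peaks per Mb on chromosome 19 and 11.1 on chromosome 17, the chromosomes with the most coding genes per Mb, and 2.35 on chromosome X and 2.67 on chromosome 4. Across the 23 chromosomes, which share a library and differ in base composition, its density correlated with that of coding genes (Pearson's r = 0.898, Spearman's coefficient 0.787). In replicate 2 the coefficients were -0.292 and -0.208. Replicate 2 had 0.217 peaks per Mb on chromosome 22 and 0.358 on chromosome 19. Its highest density was on chromosome 5, with 625 peaks (15.3% of the list) and 3.44 per Mb, against 1.34 over all chromosomes.

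**Figure D4:**
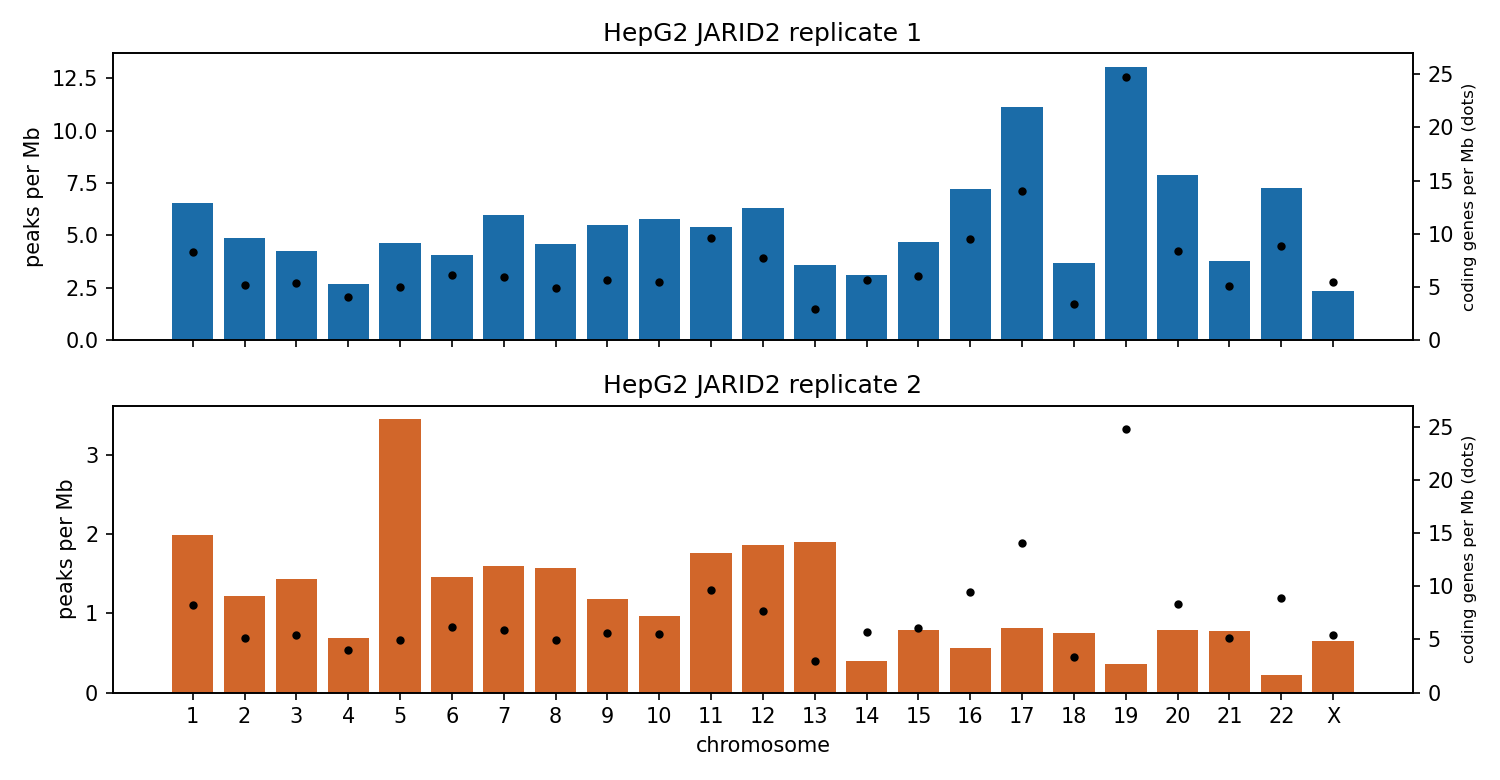
Peaks per Mb of each chromosome in replicate 1 (top) and replicate 2 (bottom) as bars, with coding genes per Mb as dots on the right axis. Replicate 1 is highest on gene-dense chromosomes 19 and 17, and replicate 2 on chromosome 5, at 3.44 per Mb.

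Replicate 2 peaks were clumped in 3 blocks whose bounds were set after seeing the lists. The short arm of chromosome 5 (1 to 46000000) held 462 replicate 2 peaks, 10.0 per Mb, against 1.20 per Mb on the rest of that chromosome. Replicate 1 had 6.85 per Mb there and 3.90 on the rest. A 2-Mb block of chromosome 11, with PGR, ANGPTL5, CEP126 and YAP1, held 76 replicate 2 peaks between 100499776 and 102221770, 38 per Mb, with a median of 100 tags. It held 44 of the 62 replicate 2 peaks longer than 2000 bp, and its peaks covered 11.3% of the block. In replicate 1 it held 22 peaks, 11 per Mb, with a median of 43 tags, and 8 of the 194 peaks longer than 2000 bp. A block near the tip of the short arm of chromosome 11, with olfactory receptor genes, held 12 peaks in replicate 2 between 3703105 and 4989441 and 16 in replicate 1. Together the 3 blocks held 13.5% of the replicate 2 peaks and 78 of its 100 peaks with the most tags, against 2.25% and 23 of 100 in replicate 1. The number of DNA copies of these segments in the cells used was not analysed here, and its part in the clumping was not tested.

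The replicates shared few genes and loci. Of 19974 coding genes 33 had a peak at an end in both (0.165%). These were 0.733% of the 4503 genes of replicate 1 and 23.1% of the 143 genes of replicate 2, beside the 22.5% of all coding genes that replicate 1 marked. At 17 of them the peaks lay at the same end of the gene, at 16 only at opposite ends, and at 11 they overlapped, where VRK3 with ZNF473 and BCL7C with CTF1 share a locus. The genes marked at opposite ends included XPO1, a nuclear export receptor, with 23 tags at the start in replicate 1 and 11 at the 3′ end in replicate 2, and NADK2, a mitochondrial NAD kinase, with 84 and 15. Peaks of both replicates overlapped by 1 bp or more at 43 loci, which took in 44 peaks of replicate 1 (0.280%) and 45 of replicate 2 (1.10%). In replicate 2 the shared portion was 0.253% of peaks with 14 tags or fewer, 0.976% with 15 to 19, 2.50% with 20 to 39 and 15.3% (18 of 118) with 40 or more. In replicate 1 it was 1.58% (16 of 1015) with 40 or more tags and 0.155% with 14 or fewer.

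By position the 43 loci were 9 at coding gene ends, 13 in the flanks of centromeres, 5 in the blocks of chromosomes 5 and 11, and 16 elsewhere. The 16 others were weak, with a median of 11 tags in replicate 1 and 15 in replicate 2 and a median distance between summits of 222.5 bp. Among the 20 loci ranked highest by tags in both, 11 were in centromere flanks, 6 at coding gene ends and 3 in the chromosome 11 block. The flanks were stretches of 5 to 13 Mb set by hand, without a centromere annotation. They lay on chromosomes 2, 3, 4, 5, 16, 17, 20 and 21 only. All but that of chromosome 3 held a shared locus, and that one held the replicate 1 peak with the most tags. Counts in flanks therefore follow in part from which flanks were set. The summits lay within 20 bp of each other at 15 loci, of which 10 were in centromere flanks and 4 at the starts of RNF130, ARFGAP3, SPOP and HDAC2. The tags of a peak scaled to the filtered depth of its IP library (RPM) were higher in replicate 1 at 37 of the 43 loci and at all 15 with summits within 20 bp. The fewest tags of any peak were 1.13 RPM in replicate 1 and 0.752 RPM in replicate 2. Tags were also summed over peaks of unequal width, so these counts do not compare binding strength.

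The 4 promoters with coinciding summits, which were picked for that coincidence, differed between the lists in height and mostly in width. At RNF130 (chromosome 5, 180071037 to 180072673 in replicate 1) replicate 1 had 147 tags, or 18.5 RPM, and replicate 2 had 63, or 4.31 RPM, with summits 485 and 492 bp before the start. At ARFGAP3, a GTPase-activating protein gene of the Golgi (chromosome 22, 42857031 to 42858059), the counts were 64 and 36 tags, with summits 206 and 211 bp before the start. At SPOP, a substrate adaptor of cullin ubiquitin ligase (chromosome 17, 49677751 to 49678833), they were 36 and 20 tags, with summits 152 and 157 bp before the start. At HDAC2, a class I histone deacetylase gene (chromosome 6, 113970897 to 113971727), they were 33 and 29 tags, with summits 379 and 375 bp before the start. The replicate 1 and replicate 2 peaks were 1637 and 742 bp long at RNF130, 1029 and 412 bp at ARFGAP3, 1083 and 403 bp at SPOP, and 831 and 894 bp at HDAC2. The folds at these genes were 62.87, 24.6, 19.63 and 18.24 in replicate 1 and 9.35, 7.62, 15.6 and 12.28 in replicate 2. All 4 pairs of summits lay upstream of the start, while most replicate 1 summits near starts lay downstream.

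The other shared loci at coding gene ends had summits further apart. DHX40, a helicase gene, had 52 and 50 tags with summits 61 bp apart, and SYCE2, a synaptonemal complex gene, had 39 and 45 tags with summits 75 bp apart. The peak between VRK3 and ZNF473 had 26 and 42 tags and summits 37 bp apart, that of TRIM44 41 and 42 tags and 302 bp, and that of BCL7C, a subunit gene of the BAF chromatin remodelling complex, 27 and 21 tags and 346 bp. A coincidence of summits within 20 bp was thus found at 4 of the 9.

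Loci in these hand-set flanks of centromeres, which are known for satellite repeats, made up 11 of the 20 shared loci ranked highest. The highest replicate 2 counts lay in the chromosome 11 block. A locus on chromosome 16 at 46388442 to 46391701, 187895 bp from the nearest coding gene, had 499 tags in replicate 1 and 250 in replicate 2, with summits 12 bp apart. Its neighbour at 46393838 had 222 and 163 tags, and 3 loci between 34586649 and 34596525 on the same chromosome had 258 and 105, 92 and 62, and 71 and 40 tags, with summits 0 to 9 bp apart. On chromosome 5 a locus at 49666040 had 101 and 92 tags, on chromosome 21 a locus at 10692317 had 66 and 64, and on chromosome 4 a locus at 49144330 had 35 and 32. The flank of chromosome 3 held the peak with the most tags of replicate 1, 722, at 93470222, with no overlapping replicate 2 peak. The 8 centromere flanks held 1.10% of the peaks of each replicate, 16 of the 100 replicate 1 peaks with the most tags and 8 of the 100 of replicate 2. Peak density by flank ran from 0.6 to 7.2 per Mb in replicate 1, against 5.18 over all chromosomes. In replicate 2 it ran from 0.143 to 2.63, against 1.34. How reads were placed among repeats beyond the authors' unique mapping was not tested.

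Within the chromosome 11 block the overlaps were wide and the summits apart. In YAP1 the replicate 2 peak of 9708 bp, the one with the most tags in its list (514), overlapped a replicate 1 peak of 2899 bp with 115 tags, with summits 4040 bp apart. In CEP126 the peaks had 73 and 378 tags and summits 4168 bp apart, and in ARHGAP42 65 and 219 tags and 4307 bp. At these 3 loci RPM was higher in replicate 2, at 35.1 against 14.5 in YAP1, 25.8 against 9.19 in CEP126 and 14.97 against 8.18 in ARHGAP42.

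**Figure D5:**
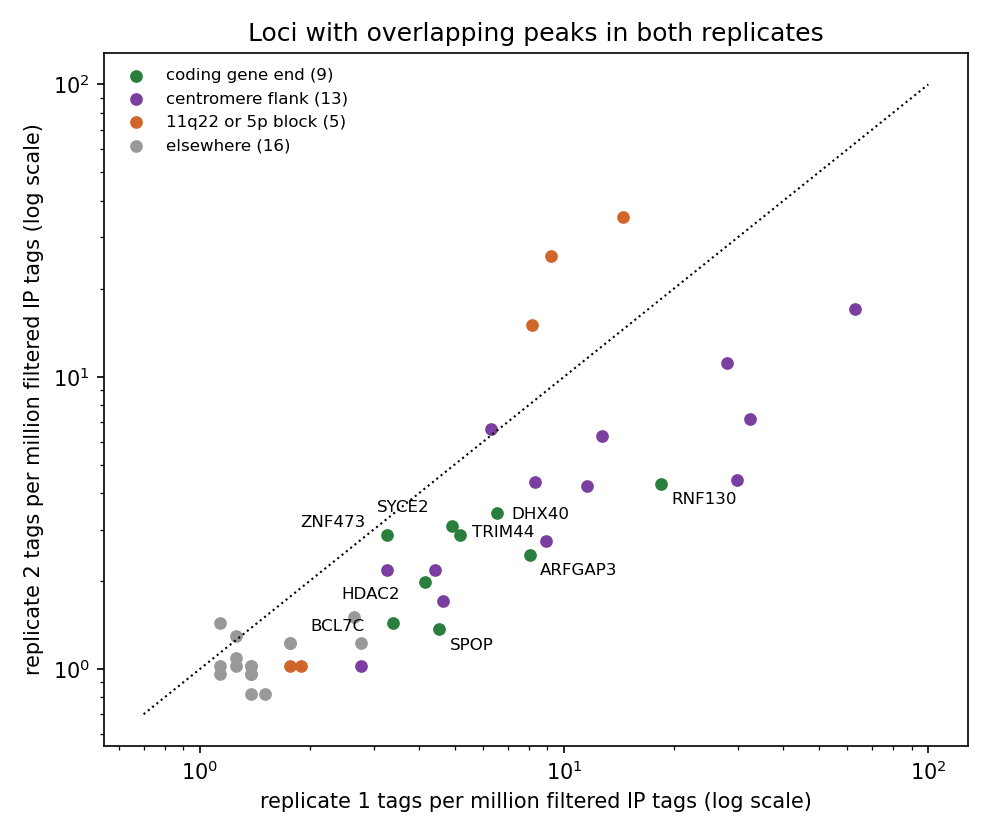
Tags scaled to filtered IP depth (RPM) in replicate 1 against replicate 2, on log axes, for the 43 loci where peaks of both overlap; colours give the position, names the gene at 9 loci, and the dotted line equal values. Promoters and centromere flanks lie mostly below the line, and the 3 loci of the chromosome 11 block above it.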

How the data were processed

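ChIP-seq of 2 HepG2 JARID2 IP libraries and their 2 inputs was analysed. Per the submitters' processing notes, cutadapt, Bowtie2, MACS 1.4.2 and build GRCh38 were used. Per the file headers, each IP was run alone with its matching input (reads with a unique alignment, duplicates at a position collapsed to 1), the larger library was scaled down, and replicates were not pooled. The peak cutoff of MACS was 1e-05. The deposited tag counts are raw counts per peak. The deposited score is the negative log10 of the p-value times 10. Fold enrichment is the authors' ratio to local input, and the authors' false discovery rate is in percent. Per the file headers, lengths and summit offsets are in bp.

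From these, positions were compared with RefSeq genes (GRCh38.p14: 19974 coding and 18177 lncRNA genes) and promoter windows for 15712 coding genes (none for chromosome 8), with Python 3.11.15, numpy 2.4.6 and pandas 2.3.3. A gene had a peak if any base of the peak lay within 2 kb of an end. The interval search was tested on simulated peaks. Peaks off chromosomes 1 to 22 and X (51 and 15) were left out. Genes were named by rule: the 20 shared loci highest by the worse of their 2 tag ranks, the 15 genes with the most tags per replicate, up to 6 genes per list, and PRC2, CDKN2A, CDKN2B and HOX genes. Other genes and loci, named for fold, gene-body peaks or position, were chosen after their values were seen. A gene that the rule names is not reported here. The members, the 29 gene lists and the block and flank bounds were chosen with earlier results of these data known. Alternatives were a window of 1 or 5 kb, a stricter score, the 2000 peaks with the most tags, summits alone, other overlap rules and leaving out blocks and flanks.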

Additional observations from a re-analysis of the deposited data

How the results depend on the processing

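Replicate 1 had the higher share of peaks at coding gene ends under every alternative run. With a window of 1 kb the shares were 23.03% and 2.26%, with 5 kb 35.1% and 7.12%, with a MACS score of at least 100 they were 66.0% and 7.14%, and among the 2000 peaks with the most tags that of replicate 1 was 74.6%. By summit alone replicate 1 had 25.8%. Genes with a replicate 1 peak numbered 1199 at the stricter score and 1744 among the 2000 peaks. Genes with a replicate 2 peak numbered 315 with 5 kb, 4 at the stricter score and 80 among the 2000. Genes with a peak in both numbered 17 at the same gene end, 86 with 5 kb, 1 at the stricter score and 12 among the 2000, and with a replicate left out the count is that of the other alone, 143 or 4503. Shared loci numbered 88 for peaks at most 1 kb apart, 5 at the stricter score, 21 among the 2000, and 25 without the blocks of chromosomes 5 and 11 and the centromere flanks. That last alternative was added after seeing the data. The stricter score and the 2000 peaks leave fewer peaks by construction.

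No paired analysis was possible because each peak was already called on an IP library and its own input together. No separate input value per peak was used here. The shares and counts come from no test, while the score and false discovery rate come from the authors' peak calling. Replicate 2 had a false discovery rate of 100% for every peak and a median of 14 tags a peak. Neither a called nor an absent replicate 2 peak therefore shows by itself whether JARID2 was bound.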
